A study of Zea mays with 4 samples.

Results

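CesA-1 to CesA-9 are the maize genes for the cellulose synthase subunits of the primary wall. Their probe sets were compared here between F98908 and Cm489, 2 maize lines with 2 Affymetrix arrays each. Every probe set whose single annotated gene carries the name CesA with a number from 1 to 9 was taken, which gave 10 probe sets for 9 genes, out of 17555 maize probe sets, of which 1452 have a single gene symbol and stand for 1108 genes. The genes are LOC541802 (CesA-1), LOC542564 (CesA-2), LOC542489 (CesA-3), LOC542624 (CesA-4), LOC541803 (CesA-5), LOC541804 (CesA-6), LOC541805 (CesA-7), LOC541806 (CesA-8) and LOC541807 (CesA-9). CesA-4 has 2 probe sets, 1 of them of the x type that can also catch related transcripts, and the other genes have 1 each. CesA genes are alike in sequence, and whether a probe set also catches the transcript of another CesA gene was not tested. Whether the probes match the sequences of both lines equally well was not tested either. A difference in signal between the lines therefore need not be one in transcript. Plants of both lines were 21 days old, at the 7 leaf stage, grown in compost at 50% humidity with 16 h of light and 8 h of dark, and the material is described only as aerial. The series concerns cell wall diversity and digestibility, and the labels give no digestibility for either line. Whether the 2 arrays of each line hold RNA of separate plants is not stated, so the p-values reflect the scatter of these arrays and no more, and that scatter may be technical. The extract labels of both F98908 arrays give the same amount, 213 ug, against 177 and 170 ug for the Cm489 arrays. The F98908 arrays may thus share 1 extract, though no label says so. Results are therefore also given with them averaged as 1 sample.

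Cellulose is spun out at the plasma membrane by a complex of cellulose synthase proteins, each of which joins glucose units from UDP-glucose into a chain. In Arabidopsis the complex of growing cells and that of cells laying down a thick wall each need 3 different kinds of CesA protein. In maize CesA-10, CesA-11 and CesA-12 serve the thick secondary wall, and the lower numbers are placed with the primary wall, the thin wall of growing cells. The complexes travel along cortical microtubules, which are built of alpha- and beta-tubulin.

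The values are GCRMA log2 values, 1 per probe set and array, and differences are F98908 minus Cm489. A probe set was called where limma's Benjamini-Hochberg adjusted p, over all 11262 tested probe sets, was under 0.05. All 10 CesA probe sets were tested, and their values ran from 9.55 to 12.5 on the 4 arrays, well over the log2 value of 4 needed for testing. Brightness depends on the probes, so the values do not rank the CesA genes by transcript level. The arrays cannot show which wall a gene serves, so the name primary wall rests on the gene numbers.

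CesA-1 and CesA-6 fell in F98908, and no CesA-1 to CesA-9 probe set rose past the threshold. CesA-3, CesA-2, CesA-5 and CesA-9 had lower means in F98908, and CesA-4, CesA-8 and CesA-7 had higher ones, with none of these called. For CesA-8 and CesA-7 the lines overlapped and the sign turned with an array left out, so their direction is open. The differences ran from -0.68 for CesA-1 to 0.36 for CesA-4. Of the 10 probe sets 2 were called lower and 0 higher (limma), with 3 lower and 2 higher at an unadjusted p under 0.05, which 32.4% of all tested probe sets had. Over all tested probe sets 15.3% were called, 8.02% lower and 7.27% higher in F98908. With 10 probe sets, 2 calls lie near this background, so the count is no result about the family.

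CesA-1 had log2 values of 10.88 and 10.93 on the F98908 arrays, against 11.49 and 11.68 on the Cm489 arrays. Both F98908 arrays lay below both Cm489 arrays, with 0.56 log2 units between the nearest. The CesA-1 signal fell by 0.68 on the log2 scale (SE 0.12), to 0.625 times that of Cm489 (95% interval 0.495 to 0.788, limma, adjusted p = 0.0407). The call was lost without either Cm489 array (adjusted p = 0.0595 without array 1 and 0.0890 without array 2), without either F98908 array (0.242 and 0.217), and with the F98908 arrays as 1 sample (0.234).

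CesA-6 stood at 10.46 and 10.57 in F98908, against 11.22 and 11.10 in Cm489. The lines did not overlap here either, and the nearest arrays were 0.53 apart. The CesA-6 signal fell by 0.65 (SE 0.11), to 0.638 times that of Cm489 (95% interval 0.512 to 0.796, limma, adjusted p = 0.0405). As for CesA-1, no call was left without Cm489 array 1 (adjusted p = 0.0909) or array 2 (0.0827), without F98908 array 1 (0.245) or array 2 (0.196), or with F98908 as 1 sample (0.225). In these bulk samples fewer cells of a type and less RNA per cell cannot be told apart.

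**Figure D1:**
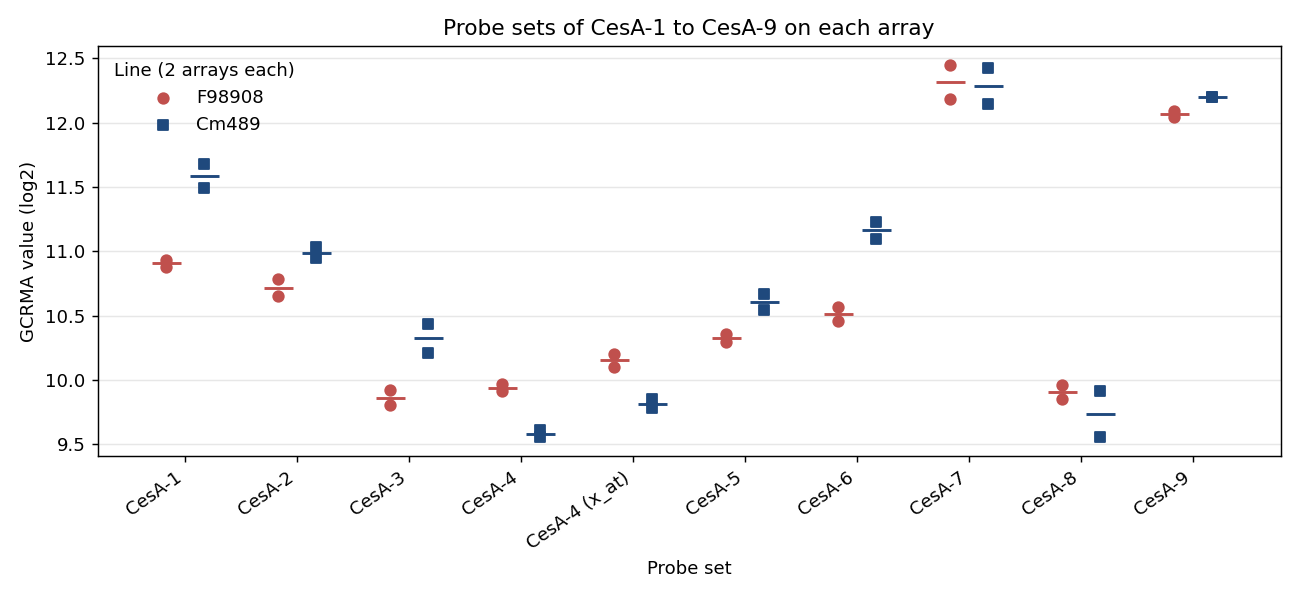
GCRMA log2 value (vertical axis) of each of the 10 probe sets of CesA-1 to CesA-9 (horizontal axis), with F98908 as circles, Cm489 as squares, 1 point per array and a bar at the mean of the 2 arrays of a line. CesA-1 and CesA-6 have the widest gaps between the lines, 0.56 and 0.53, while the arrays of the lines overlap for CesA-7 and CesA-8.

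A further 4 genes were lower in F98908 on both arrays without passing the test. Over all tested probe sets 35.4% lay lower without overlap, called or not. CesA-3 had values of 9.80 and 9.92 in F98908, against 10.21 and 10.43 in Cm489 (difference -0.46 ± 0.13 SE, adjusted p = 0.104). Its 95% interval of -0.83 to -0.09 leaves room for a decrease as large as that of CesA-1. CesA-2 had values of 10.65 and 10.78 in F98908, against 10.94 and 11.03 in Cm489, a difference of -0.27 (95% interval -0.59 to 0.04, adjusted p = 0.193). CesA-5 was at 10.30 and 10.35 in F98908, against 10.54 and 10.67 in Cm489, a difference of -0.28 (95% interval -0.58 to 0.02, adjusted p = 0.175). For both, the intervals include 0 and also a decrease of over 0.5. CesA-9 had the smallest difference of the 4, with 12.05 and 12.09 in F98908, against 12.196 and 12.202 in Cm489 (-0.13, 95% interval -0.40 to 0.14, adjusted p = 0.416). The 2 Cm489 arrays agreed most closely for this gene, with an SD of 0.0045, the smallest of all CesA-1 to CesA-9 probe sets.

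CesA-4 was higher in F98908 on both of its probe sets, without a call. One had values of 9.97 and 9.91 in F98908, against 9.55 and 9.61 in Cm489 (difference 0.36 ± 0.10 SE, 95% interval 0.08 to 0.64, adjusted p = 0.0993). The x type probe set had 10.10 and 10.20 in F98908, against 9.79 and 9.85 in Cm489 (0.34 ± 0.10 SE, adjusted p = 0.120). Neither overlapped between the lines. Both were designed on the same transcript, so they are not independent measurements.

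CesA-8 and CesA-7 overlapped between the lines. CesA-8 had values of 9.85 and 9.96 in F98908, against 9.56 and 9.91 in Cm489 (difference 0.17, 95% interval -0.29 to 0.64, adjusted p = 0.529). Its SD of 0.25 in Cm489 was the largest within a line among these probe sets. CesA-7 had values of 12.45 and 12.18 in F98908, against 12.15 and 12.43 in Cm489 (0.03, 95% interval -0.45 to 0.51, adjusted p = 0.923). The sign turned without F98908 array 1 (-0.10) or Cm489 array 1 (-0.11) for CesA-7, and without Cm489 array 1 for CesA-8 (-0.0058), so no direction is given for either gene.

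**Figure D2:**
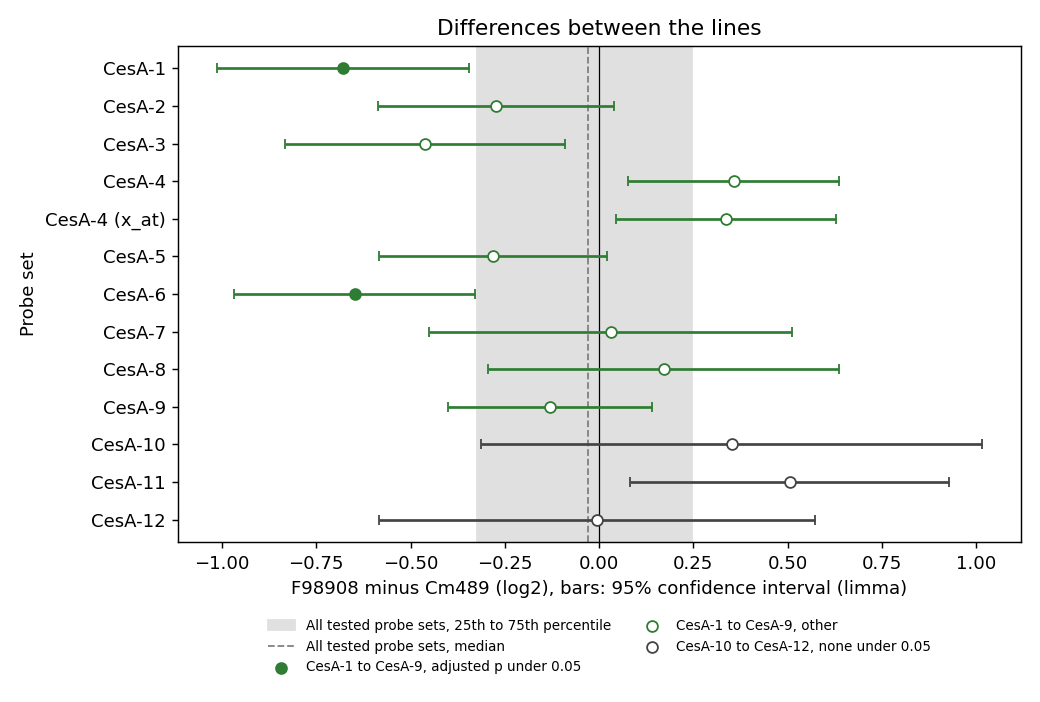
Difference between the lines, F98908 minus Cm489 in log2 units (horizontal axis), for each CesA probe set (vertical axis), with bars for limma's 95% confidence interval. Filled points are called, and the grey band spans the 25th to the 75th percentile of all tested probe sets, -0.32 to 0.25. The called genes CesA-1 (-0.68) and CesA-6 (-0.65) lie left of the band, and so does CesA-3 (-0.46), which was not called. Both CesA-4 probe sets (0.36 and 0.34), CesA-11 (0.50) and CesA-10 (0.35) lie right of it.

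Taken as a family, the 10 probe sets had a median difference of -0.20, beside -0.03 over all tested probe sets, and a median absolute difference of 0.31, beside 0.29. In 6 of the 10 both F98908 arrays lay below both Cm489 arrays, and in 2 above them. Over all tested probe sets 35.4% lay below without overlap and 28.5% above, 63.9% in all, so 8 of 10 is not far from the share among probe sets of any kind. A difference as large as that of CesA-1, in either direction, was found for 23.2% of all tested probe sets. Array 2 was the brighter one for 9 of the 10 probe sets in Cm489, all but CesA-6, and for 8 of the 10 in F98908. The median absolute difference between arrays of a line was 0.10 in F98908 and 0.13 in Cm489 for these probe sets, against 0.13 and 0.21 over all tested ones.

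On these arrays the difference between the lines varied in size and sign among the CesA genes, which was not tested as such. The value of CesA-1 minus that of CesA-4 on the same array was 0.91 and 1.02 in F98908, against 1.94 and 2.07 in Cm489, a change of -1.04 in which any scaling of the whole array cancels. Only the change between the lines can be read from such a value, not which gene has more transcript. For CesA-4 minus CesA-6 it was -0.49 and -0.66 in F98908, against -1.67 and -1.48 in Cm489, a change of 1.005. By contrast CesA-1 minus CesA-6 changed by only -0.03. These pairs were chosen after their values were seen and are a description, since an exact permutation test of 2 against 2 arrays cannot give a two-sided p under 0.333.

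The secondary wall genes showed no call. CesA-11 was at 10.20 and 10.22 in F98908, against 9.87 and 9.55 in Cm489 (difference 0.50 ± 0.15 SE, limma, adjusted p = 0.112). CesA-10 was at 9.53 and 9.45 in F98908, against 9.43 and 8.85 in Cm489 (0.35 ± 0.23 SE, adjusted p = 0.381). The CesA-10 difference rested on Cm489 array 2, at 0.059 without it and 0.64 without Cm489 array 1. CesA-12 had 10.61 and 10.63 in F98908, against 10.87 and 10.38 in Cm489, a difference of -0.01 (adjusted p = 0.990) whose sign turned under 2 other scalings. The F98908 arrays lay above the Cm489 arrays for CesA-10 and CesA-11 and within their range for CesA-12. For CesA-10 the nearest arrays were only 0.018 apart. Over all tested probe sets 28.5% lay above without overlap, so this is no result about the secondary wall genes. The COBRA-like gene bk2, whose loss gives brittle stalks, was at 10.28 and 10.10 in F98908, against 9.54 and 8.65 in Cm489 (1.10 ± 0.34 SE, adjusted p = 0.123). The bk2 difference was 1.54 without Cm489 array 1 (adjusted p = 0.0380, a call) and 0.65 without Cm489 array 2 (adjusted p = 0.109).

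The cellulose pathway list also holds the COBRA-like genes Bk2L3 and Bk2L6 and the sucrose synthases sh1, sus1 and sus2, which supply UDP-glucose. The glycosylated protein RGP and the xyloglucan endotransglycosylase xet1 are listed there as wall polysaccharide partners, not as cellulose genes. With the secondary wall genes and bk2 the list has 15 probe sets of 11 genes, of which 12 were tested. Limma called 0 of the 12 in either direction, with 2 higher and 0 lower at an unadjusted p under 0.05, and their median difference was -0.08. Over all tested probe sets 15.3% were called, 32.4% had an unadjusted p under 0.05, and the median was -0.03. With 12 probe sets the counts are no result about the list. The brightest of the 12, sus1, had values of 14.29 and 14.38 in F98908, against 14.54 and 14.45 in Cm489 (-0.16, adjusted p = 0.379). The not tested sus2 lay under log2 4 on all 4 arrays, at 2.65 and 2.48 in F98908, against 3.85 and 3.77 in Cm489.

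Among tubulin genes, 2 gave calls in the direction of CesA-1 and CesA-6. Of 15 tested probe sets of 10 tubulin genes, 4 were called lower and 0 higher in F98908 (limma, 7 lower and 0 higher at an unadjusted p under 0.05), with a median difference of -0.24, beside -0.03 over all tested probe sets. Over all tested probe sets 8.02% were called lower, and 32.4% had an unadjusted p under 0.05 in either direction. The 4 are 3 of the 4 probe sets of the beta-tubulin gene tub6 and the single one of tub4, so they stand for 2 genes. Of the 15, 13 had lower means in F98908 and 2 had higher ones, those of tub5 (0.14 and 0.12). TUB2 overlapped between the lines (-0.19, limma, adjusted p = 0.723). Whether the tubulin and CesA differences are linked was not tested. tub4 had values of 13.06 and 13.18 in F98908, against 13.91 and 14.15 in Cm489, and fell by 0.91 (SE 0.14, adjusted p = 0.0302). The called tub6 probe sets fell by 0.63, 0.65 and 0.67 (adjusted p = 0.0445, 0.0360 and 0.0356), and the other differed by -0.63 (adjusted p = 0.0556). None of the 4 was called without 1 array, with adjusted p from 0.0509 (tub4 without Cm489 array 1) to 0.257 (tub6 without F98908 array 1). With the F98908 arrays as 1 sample none was called either (adjusted p from 0.190 to 0.233). The alpha-tubulin probe sets, 5 tested, gave 0 calls, 2 of them lower at an unadjusted p under 0.05.

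Among 960 tested probe sets of other named genes, those most like CesA-1 and CesA-6 over the 4 arrays were sought by the root mean square difference of log2 values centred on their own mean. For CesA-1 the nearest were 2 probe sets of tub6, at 0.038 and 0.047 log2 units, and one of nfd110, at 0.048. The first tub6 probe set had values of 12.37 and 12.49 in F98908, against 12.99 and 13.13 in Cm489. For CesA-6 the nearest were tbp2, for a TATA-binding protein, at 0.025, another tub6 probe set at 0.030 and the cytokinin response regulator gene RR4 at 0.030. That tub6 probe set had 10.85 and 10.98 in F98908, against 11.59 and 11.54 in Cm489. RR4 was dim, at 3.41 and 3.47 in F98908, against 4.10 and 4.01 in Cm489, and its difference shrank to -0.05 with values under log2 4 set to 4. All of these were called lower in F98908 (limma, adjusted p from 0.0356 to 0.0473). They were picked for likeness to probe sets called lower, so their calls are no separate result. RR4 was over log2 4 on the Cm489 arrays only, and it was tested through them alone. As for tub6, the calls of nfd110, tbp2 and RR4 were lost without any single array (adjusted p from 0.0697 to 0.264) and with F98908 as 1 sample (0.230 to 0.257). Likeness over 4 arrays of 2 lines mostly reflects a difference of like size between the lines.

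**Figure D3:**
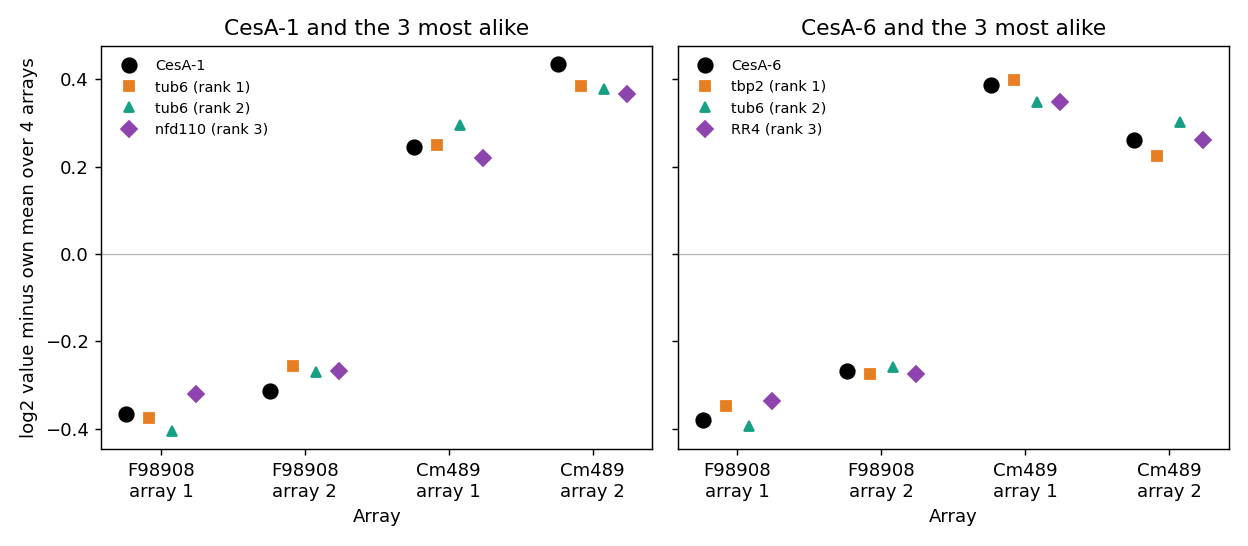
Log2 values centred on each probe set's own mean over the 4 arrays (vertical axis) on each array (horizontal axis), for CesA-1 (left) and CesA-6 (right) with the 3 most alike probe sets of other named genes. In both panels the F98908 arrays lie below 0 and the Cm489 arrays above it for every probe set, and Cm489 array 2 is the higher one for CesA-1 and Cm489 array 1 for CesA-6.

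The leaf marker lists held bright and dim probe sets. Cab-m7, a chlorophyll-binding protein gene of the antenna, was at 14.29 and 14.27 in F98908, against 14.16 and 14.22 in Cm489, and the Rubisco gene rbcS at 11.77 and 11.53, against 11.94 and 12.28. Of 8 mesophyll probe sets 5 were tested and 0 called (limma, 2 higher and 0 lower at an unadjusted p under 0.05). Over all tested probe sets 15.3% were called and 32.4% had an unadjusted p under 0.05. All 5 had higher means in F98908, by 0.09 for Cab-m7 to 0.64 for mdh6, with a median of 0.43. Besides Cab-m7 and mdh6 they are all of 1 gene, pdk1, so they do not stand for 5 genes. The median is that of a pdk1 probe set with 6.15 and 4.27 in F98908, against 4.74 and 4.78 in Cm489. Its lines overlapped, as did those of another pdk1 probe set (7.24 and 5.31, against 5.91 and 6.17). The brightest pdk1 probe set did not overlap (9.76 and 9.69, against 9.38 and 8.88). The bundle sheath marker rbcS went the other way (-0.47), without a call. The probe set of the C4 enzyme gene pep1 was under log2 2 on all arrays but Cm489 array 1, at 5.44. Several pdk1 probe sets were dim, down to 1.70, and of the bundle sheath probe sets, 2 in number, that of the malic enzyme gene ME1 was under log2 4 on all arrays. Among markers of other tissues the root gene zrp4 was lower in F98908, with 3.14 and 2.48, against 10.99 and 10.78 in Cm489 (difference -8.07, limma, adjusted p = 0.000798). Both F98908 values lie under log2 4, so zrp4 was tested through its Cm489 arrays alone. The size of its difference is therefore uncertain. The other root probe sets, RCP1 and RCP2, were under log2 4 on all arrays. Of 6 kernel probe sets 1 was tested, that of the zein gene zp27, at 5.02 and 4.80 in F98908, against 4.42 and 4.44 in Cm489 (0.48, adjusted p = 0.0841). The part of these markers in the CesA differences was not tested. The pollen genes mgs1 and mgs2 were near log2 2 on all arrays. The medians of the 4 arrays over all maize probe sets lay between 6.67 and 6.69, so total output was set equal by the normalization.

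**Figure D4:**
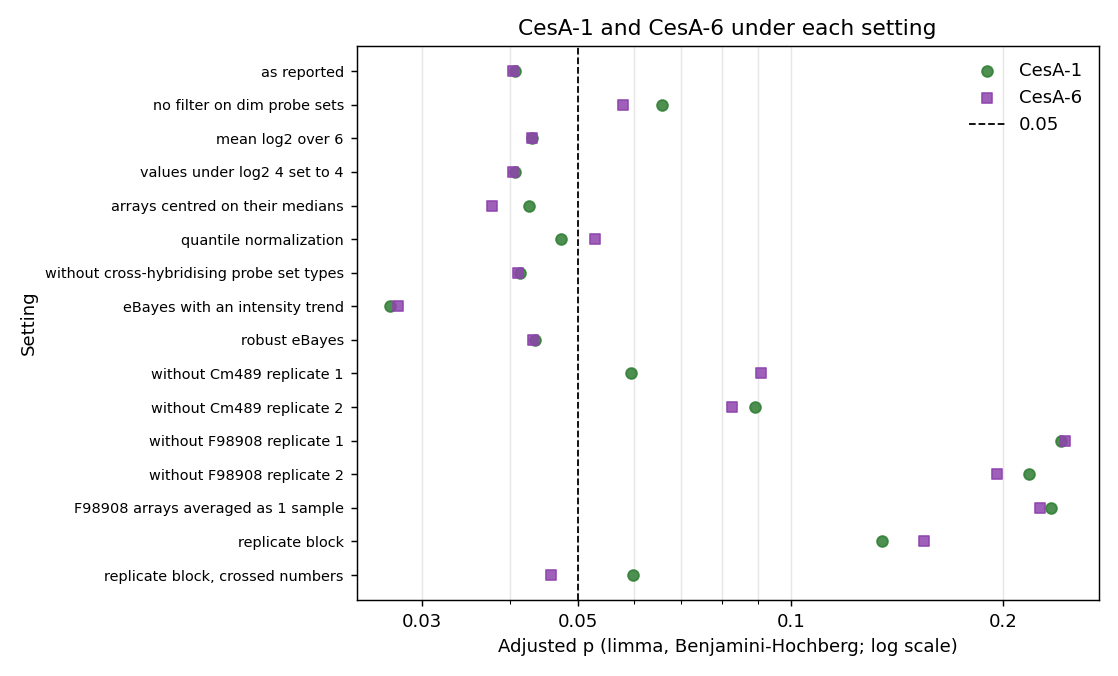
Adjusted p (limma, log axis) of CesA-1 (circles) and CesA-6 (squares) as reported and under 15 other settings (vertical axis), with a dashed line at 0.05. CesA-1 and CesA-6 were each under the line in 7 of the 15, and both were over it whenever an array was left out or the F98908 arrays were averaged.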

How the data were processed

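Total RNA of 4 samples was hybridised to Affymetrix maize arrays, with biotin labelling and 20 ug of cRNA per the labels. The deposited log2 values were made by the authors with the GCRMA method (submitters' processing notes; no version is given there). It corrects background from probe sequence and sets the probe values of the arrays to a common distribution, which removes differences in total RNA output. The deposited values per probe set still differed slightly in distribution. Quantile normalization of them moved CesA-6 from -0.65 to -0.59 (limma, adjusted p = 0.0528). Scanner files and probe sequences were not used here.

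Of 17734 probe sets, 179 spike-in and reporter controls were left out. A probe set was tested if over log2 4 on at least 2 arrays. Names came from the platform annotation, matched by gene ID to RefSeq (Zm-B73-REFERENCE-NAM-5.0), which held 1377 of the 1452 probe sets with 1 symbol. 1 probe set with several symbols was not named. No genome build is named for the values, so no positions are given. Limma 3.58.1 in R 4.3.3 was run without a replicate block (1.79 prior and 2 residual degrees of freedom), after tests on simulated data.

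The members and lists were chosen with earlier results of these data known. Named are all CesA probe sets, the secondary wall genes, bk2, and the 3 named probe sets most like each called CesA gene; other names were chosen after their values were seen. From the lists, genes of another function that share a symbol were dropped. The number of arrays limits the precision, and 15 alternatives were run.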

Additional observations from a re-analysis of the deposited data

How the results depend on the processing

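CesA-1 to CesA-6 and CesA-9 kept their direction in each of the 15 alternatives in which they were fitted. CesA-7 and CesA-8 turned with 1 array left out (from -0.11 to 0.17 and from -0.0058 to 0.35). CesA-12 turned with arrays centred on their medians (0.0012), with quantile normalization (0.059) and with 1 array left out (from -0.25 to 0.24). The count of CesA-1 to CesA-9 probe sets called lower was 0 with dim probe sets kept in the fit (CesA-1 at an adjusted p of 0.0656 and CesA-6 at one of 0.0579), 1 with quantile normalization, 0 with any array left out and 0 with F98908 as 1 sample. With 1 array left out or F98908 as 1 sample, fewer samples enter the fit and the single array is assumed to vary like the other line. The median difference of the family was -0.27 without the cross-hybridising probe set types. Over all probe sets, 170 were lower and 248 higher with F98908 as 1 sample, 505 were higher with a mean over log2 6, and 176 to 536 were lower and 257 to 543 higher with 1 array left out.

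The lines share replicate numbers, but no label says that a number marks a shared batch, and array 1 minus array 2 correlated at -0.365 between the lines across tested probe sets. With the replicate block, 0 CesA-1 to CesA-9 probe sets were called, and 371 were lower and 409 higher over all. No tub4, tub6, nfd110, tbp2 or RR4 probe set was called with it (adjusted p from 0.0857 to 0.166). A block with crossed numbers, added after the data were seen, called 1, with 968 lower and 885 higher over all. Of 341 single results under alternatives, 260 kept direction and side of the threshold, 73 lost the call, 1 gained it and 7 turned.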
